A study of Mus musculus with 14 samples.

Results

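B3gnt7 is 1 of 472 genes whose allelic reads were counted in 14 clonal lines of mouse embryonic stem cells. It was chosen by its measured levels in these same lines: its counts on the 129 and CAST copies are low where the enhancer named Chen2008-25 is deleted, so the levels across those groups are given as a description, without a test. All lines descend from the F1 2-1 line, female stem cells of a cross between the 129 and Castaneus (CAST) mouse strains. Each line is a single clone with a deletion of an enhancer. The Chen2008-25 set holds 5 knockout clones deleted on both chromosomes (-/-; B4, C4, G2, H2 and H4) and 1 heterozygous clone, read here as deleted on the 129 chromosome (-/+; E6). The Chen2008-1 set, which serves as the control here, carries a deletion of another enhancer: in the same reading of the signs, 6 clones lack it on CAST (+/-; B8, D3, E3, E7, G3 and H7) and 2 lack it on 129 (-/+; D10 and D2). No clone free of both deletions was analysed here. In any level compared with the Chen2008-1 clones, the enhancer therefore cannot be told apart from the set of clones. Within the Chen2008-25 set, the genotypes can be compared only through 1 heterozygous clone. All clones grew without serum in 2i/LIF medium, which holds a cytokine and kinase inhibitors that keep stem cells undifferentiated.

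An enhancer is a stretch of DNA that raises transcription from promoters on its own chromosome, so a deletion on 1 chromosome can lower 1 copy of its target and leave the other copy in the same nucleus as a reference. B3gnt7 encodes a Golgi enzyme that adds N-acetylglucosamine to galactose at the growing end of sulfated sugar chains. Such enzymes alternate with galactosyltransferases to build poly-N-acetyllactosamine, the backbone of keratan sulfate, which sulfotransferases then modify.

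The gene lies on chromosome 1. In the GENCODE annotation of GRCm38, its main coding transcript has 2 exons and 397 codons, and nearly all of the coding sequence is in the second exon. An antisense gene on the opposite strand, Gm28626, overlaps it and is not among the counted genes. Reads of the pair can be told apart only with strand information, and strand use is not stated in the labels or file headers. The promoter is shown as background: the counts measure RNA from each chromosome, and promoter output itself was not measured. The 250 bases before the RefSeq start (GRCm38.p6, chr1:86302971-86303220, + strand, 5′ to 3′) are below, with matches to the E-box CACGTG and the GC box GGGCGG on either strand in capitals. The motifs searched were chosen after this sequence had been seen.
B3gnt7 promoter: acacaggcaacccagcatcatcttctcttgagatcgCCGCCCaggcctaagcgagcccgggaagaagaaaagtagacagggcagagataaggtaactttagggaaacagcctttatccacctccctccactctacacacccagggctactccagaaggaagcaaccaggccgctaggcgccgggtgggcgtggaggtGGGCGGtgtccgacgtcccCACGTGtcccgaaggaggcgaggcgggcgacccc
The window is GC-rich, at 61.6% against a median of 52.4% over 32851 such windows, and holds 16 CG pairs against a median of 6. The E-box occurs 1 time, starting 34 bases before the start, and 6.02% of all windows hold it. The GC box occurs 2 times, and 32.7% of windows hold it. No match to TATAAA (12.4% of windows), AAGGTCA (4.08%) or ATGCAAAT (1.60%) was present. The matches do not overlap.

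Clones had between 135881 (D10) and 1331965 (D3) allelic reads. B3gnt7 itself had between 100 reads (G2) and 2607 reads (D3). Levels are in CPM, which scales counts to 1000000 allelic reads after TMM adjustment of library size. Embryonic stem cell identity could not be checked, since 0 of 12 stem cell markers, 0 of 6 feeder fibroblast markers and 0 of 8 markers of early differentiation are in the panel.

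Summed over both copies, B3gnt7 was highest in the Chen2008-1 clones, intermediate in the heterozygous clone and lowest in the knockout clones. The totals in the Chen2008-1 clones ran from 1375 CPM in H7 to 2225 CPM in B8, with a median of 1974 CPM and a mean of 1939 CPM ± 279 (SD, n = 8). E6 was at 953 CPM. The knockout clones B4, C4, G2, H2 and H4 were at 424, 451, 429, 491 and 446 CPM, a mean of 448 CPM ± 26.3 (SD, n = 5). The 3 genotypes did not overlap: the highest knockout clone was below E6, and E6 was below the lowest Chen2008-1 clone. Of 448 panel genes, 17 (3.79%) had this order, and 85 (19.0%) had every knockout clone below every Chen2008-1 clone. E6 is 1 clone, and these counts include B3gnt7, whose levels chose it. In bulk RNA, fewer cells that express a gene and less RNA per cell cannot be told apart.

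In the edgeR fit over 448 genes, the knockout total was 23.2% of the Chen2008-1 total (95% interval 19.9 to 27.1%, log2 difference -2.11, SE 0.11). The total in E6 was 49.2% (37.2 to 65.1%, log2 difference -1.02, SE 0.19), and the knockout clones were at 47.2% of E6 (36.5 to 61.1%). Differences between the clone sets were common. In the panel, 62.1% of genes passed an adjusted p of 0.05 between knockout and Chen2008-1 clones, and 34.8% did so between E6 and Chen2008-1 clones. B3gnt7 had the 9th lowest of the 448 knockout estimates and the 39th lowest of the E6 estimates, and both comparisons use the same control clones. The heterozygous clone is single, and its error is borrowed from the spread within the other groups.

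**Figure D1:**
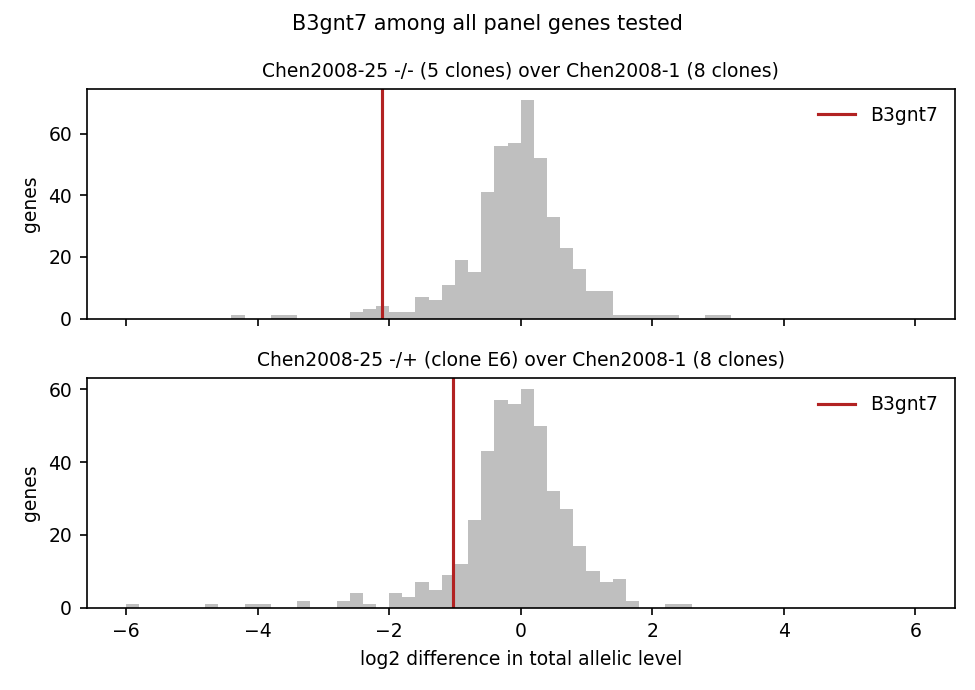
Histograms of the log2 difference in total allelic level over the 448 genes tested, for knockout clones (upper) and clone E6 (lower) against the same 8 Chen2008-1 clones; the vertical axis counts genes and the red line is B3gnt7. B3gnt7 sits in the lower tail at -2.11 in the knockout clones and nearer the centre at -1.02 in E6, while the medians of all genes are -0.02 and -0.03.

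Counted copy by copy, with the signs read as 129 before CAST, copies that kept the Chen2008-25 enhancer gave more RNA than copies that lost it. The 17 copies with the enhancer gave between 641 and 1233 CPM, with a median of 956 CPM. The 11 copies without it gave between 138 and 308 CPM, with a median of 226 CPM. The lowest copy with the enhancer was 2.08 times the highest copy without it. This separation depends on how the signs of E6 are read. With CAST before 129, the copies with the enhancer would span 247 to 1233 CPM and those without it 138 to 706 CPM, and the ranges would overlap. The copies of the other 13 clones do not depend on the reading: the 16 of the Chen2008-1 clones gave 641 to 1233 CPM and the 10 of the knockout clones 138 to 308 CPM. Copies of 1 clone share a library and are not independent replicates.

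On the 129 chromosome, the Chen2008-1 clones ran from 734 CPM (H7) to 1233 CPM (D10), with a median of 952 CPM. The knockout clones B4, C4, G2, H2 and H4 were at 216, 226, 232, 234 and 308 CPM. The deleted 129 copy of E6 was at 247 CPM. E6 thus lay inside the knockout range on this copy, at 102% of the knockout mean of 243 CPM ± 36.8 (SD, n = 5). The fitted log2 differences from the Chen2008-1 clones were -2.02 (SE 0.13) for knockout clones and -1.98 (SE 0.25) for E6.

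On the CAST chromosome, the Chen2008-1 clones ran from 641 CPM (H7) to 1093 CPM (G3), with a median of 975 CPM. The knockout clones B4, C4, G2, H2 and H4 were at 209, 226, 197, 257 and 138 CPM. The intact CAST copy of E6 was at 706 CPM. That value is far above every knockout clone but in the lower part of the control range: 1 of the 8 Chen2008-1 clones was lower and 7 were higher. It was 73.7% of their mean of 957 CPM ± 141 (SD, n = 8). The fitted log2 difference of this copy from the Chen2008-1 clones was -0.44 (SE 0.23, 95% interval -0.93 to 0.04), against -2.19 (SE 0.14) for the CAST copy of the knockout clones. The total of E6 was 79.8% of the midpoint of 1194 CPM between the knockout and Chen2008-1 means.

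**Figure D2:**
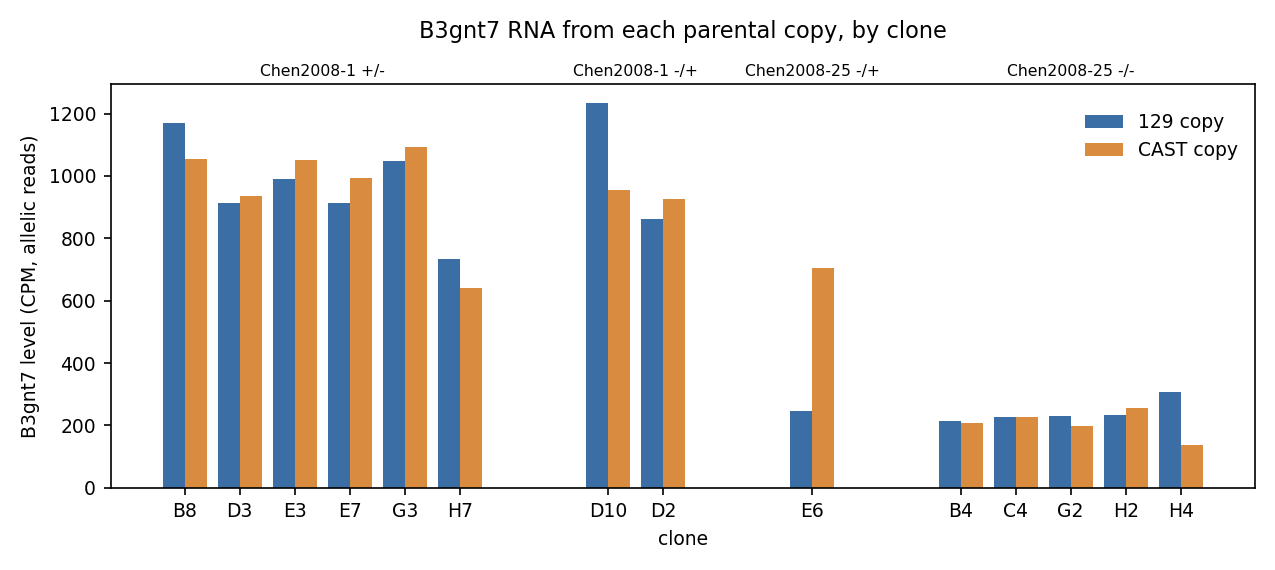
B3gnt7 level in CPM (vertical axis, from 0) for each clone, with 1 bar for the 129 copy and 1 for the CAST copy, grouped by enhancer and genotype. In the 8 Chen2008-1 clones both bars lie between 641 and 1233 CPM, in the knockout clones between 138 and 308 CPM, and in E6 the 129 bar is at 247 and the CAST bar at 706 CPM.

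The share of reads from the 129 copy shows the same within each clone and does not depend on library size. In E6 it was 26.0% (149 of 574 reads, 95% Wilson interval 22.5 to 29.7%). In the Chen2008-1 clones it ran from 47.9% (E7) to 56.3% (D10), with a mean of 50.6% ± 3.07 (SD, n = 8). The knockout clones B4, C4, G2, H2 and H4 were at 50.8, 50.0, 54.0, 47.7 and 69.0%. The Wilson intervals cover counting error only. Expressed as a ratio, the 129 copy of E6 gave 34.9% of what the CAST copy gave, relative to the same ratio in the Chen2008-1 clones (95% interval 26.8 to 45.3%).

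The share in E6 lay 21.8 percentage points below the lowest of the other 13 clones. Of 427 expressed genes with reads in every clone, 30 had a lower 129 share in E6 than in any other clone and 29 a higher one, so lying outside the range was not rare. The gap of B3gnt7 was the widest of the 427. This is a description of the value by which the gene was chosen.

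**Figure D3:**
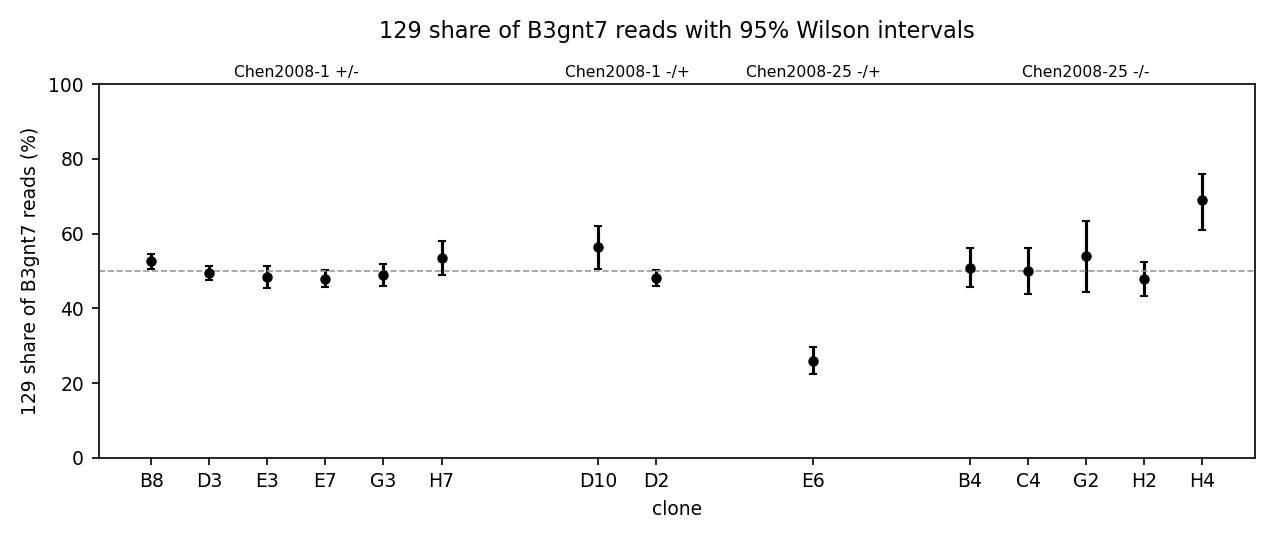
Share of B3gnt7 reads from the 129 copy in percent (vertical axis) for each clone; points are clones, bars are 95% Wilson intervals from reads, and the dashed line marks 50%. E6 is at 26.0%, H4 at 69.0%, and the other 12 clones lie between 47.7 and 56.3%.

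The order of the signs in the genotype codes is not stated. The reading of 129 before CAST was set beside genes on chromosome 7 whose alleles differed between the Chen2008-1 genotypes. In the Chen2008-1 clones, the 129 share of Zbtb45, a zinc-finger gene, was 72.2% ± 1.53 (SD, n = 6) in +/- clones and 22.3% ± 0.262 (SD, n = 2) in -/+ clones. For Trim28, a co-repressor gene, it was 67.5% ± 1.53 (SD, n = 6) and 30.2% ± 1.62 (SD, n = 2). In each genotype the lower copy of both genes is the one that this reading calls deleted. That fits the reading only under the assumption that a deletion lowers its own copy, and the order was not tested in any other way.

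Where both copies of the Chen2008-25 enhancer were present, the balance of the alleles was tested. The gene was chosen by levels between groups and not by this contrast. The counts are among those that chose it, however, so the test is not independent of that choice. In the Chen2008-1 clones the 129 copy of B3gnt7 was at 101% of the CAST copy (95% interval 93.2 to 108%, log2 0.01, SE 0.05, edgeR adjusted p = 0.890). It was the higher copy in 3 of 8 clones, and an exact sign-flip permutation over clones gave p = 0.602 (two-sided, smallest possible 0.00781). In the same fit 68.5% of 444 genes differed between the alleles.

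Where both copies were deleted, the remaining RNA also came from both chromosomes. The counts tested here are likewise among those that chose the gene. The 129 copy of the knockout clones was at 114% of the CAST copy (95% interval 92.2 to 140%, log2 0.18, SE 0.15, edgeR adjusted p = 0.292), while 62.3% of 438 genes passed. It was higher in 3 of 5 clones, equal in C4 at 124 reads each and lower in H2. The exact sign-flip permutation gave p = 0.375 (two-sided), and the design with 1 tied clone cannot go below 0.125. Clone H4 sets much of this estimate: without it the log2 value was 0.01 (SE 0.13).

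The Chen2008-1 deletion itself, on 129 or on CAST, was not used in choosing B3gnt7. Its total was 1988 CPM ± 284 (SD, n = 2) in -/+ clones and 1923 CPM ± 303 (SD, n = 6) in +/- clones, and the 2 -/+ values lay within the range of the 6 others. The log2 difference was 0.03 (SE 0.16, 95% interval -0.31 to 0.37, edgeR adjusted p = 1.00). In this contrast 0% of 444 genes passed in edgeR or DESeq2, and 9 had an unadjusted p under 0.05. The 129 share of B3gnt7 was 52.3% ± 5.73 (SD, n = 2) and 50.1% ± 2.29 (SD, n = 6), and the allelic ratios differed by 0.04 on the log2 scale (SE 0.13, 95% interval -0.22 to 0.30, edgeR adjusted p = 0.987). Here 0.901% of 444 genes passed, namely Zbtb45, Trim28, Ube2m and Zfp446, of which the last 2 are named after their values were seen.

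The measured spread of B3gnt7 totals between clones was near the panel median in the Chen2008-1 clones and below it in the knockout set. Its coefficient of variation was 14.4% in the Chen2008-1 clones, where the median of 443 genes was 14.3%. It was 5.87% in the knockout clones, where the median of 434 genes was 12.2% and 70 genes varied less. These knockout totals rest on 100 (G2) to 463 (H2) reads, and genes of the panel differ in depth. The part of counting error in this spread was not tested, so the value does not show that the knockout clones varied less. The 129 share varied more than that of most genes in the knockout clones, with an SD of 8.52 percentage points against a median of 3.43. This rests on H4: without it the SD was 2.59 points, below the median of 3.28. In the Chen2008-1 clones the SD of the share was 3.07 points against a median of 3.98.

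For 4 of the 5 neighbouring panel genes with enough reads, the 129 share in E6 lay inside the range of the other clones. On 1 side, the 129 share in E6 was 50.1% for the proteasome subunit gene Psmd1 (Chen2008-1 clones 46.5 to 52.2%) and 54.6% for Armc9 (43.8 to 59.9%). On the other side it was 43.5% for Ncl, which encodes nucleolin (43.4 to 49.9%), and 53.7% for the prothymosin gene Ptma (47.9 to 53.1%, knockout clones 52.8 to 56.3%). C130036L24Rik was at 56.5%, below the Chen2008-1 range of 62.2 to 77.8% and the knockout range of 58.8 to 72.9%. Its log2 difference in allelic ratio was -0.58 (SE 0.36, 95% interval -1.35 to 0.19, edgeR adjusted p = 0.622), in a fit where 1.35% of 445 genes passed. That share is 6 genes and depends on the controls: 17 genes passed with +/- controls alone, 2 with -/+ controls alone and 1 with knockout clones as controls. The serotonin receptor gene Htr2b was not tested. It averaged 4.62 reads in the Chen2008-1 clones and 8.6 in the knockout clones, and had 11 reads in E6. On these few reads, its totals were at most 9.94 CPM in the Chen2008-1 clones. They were at least 12.6 CPM in the knockout clones and 18.3 CPM in E6. In knockout totals, where 62.1% of panel genes passed, Ncl (0.89, SE 0.08, edgeR adjusted p = 7.83e-08) and Psmd1 (0.18, SE 0.05, adjusted p = 0.00743) rose against the Chen2008-1 clones, and Armc9, C130036L24Rik and Ptma did not pass. On the CAST copy alone, the knockout differences were -0.44 for Armc9 (edgeR adjusted p = 0.0392) and -0.23 for Ptma (adjusted p = 0.0266). For C130036L24Rik the CAST difference was 0.03 (adjusted p = 0.903). On the 129 copy they were -0.00193 for Armc9, -0.0589 for Ptma and -0.0163 for C130036L24Rik. The share of panel genes passing on a single copy was not counted.

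**Figure D4:**
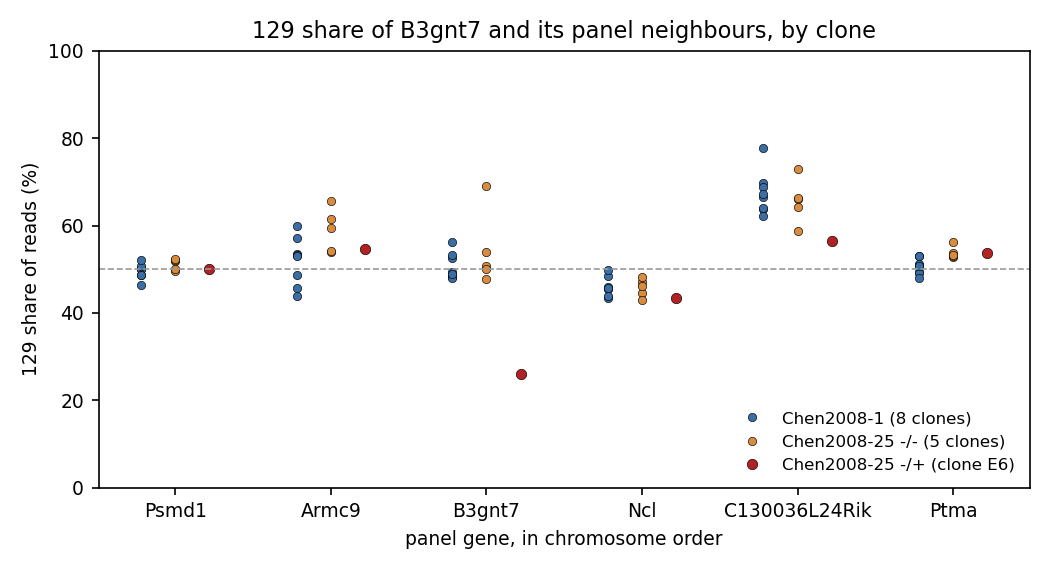
Share of reads from the 129 copy in percent (vertical axis) for B3gnt7 and 5 neighbouring panel genes in chromosome order; each point is a clone, coloured by group, and the dashed line marks 50%. For B3gnt7 the E6 point at 26.0% lies away from all others, while for Psmd1, Armc9, Ncl and Ptma it lies among the other clones.

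Of 71 genes of glycan chain synthesis and breakdown, including the other beta-linked N-acetylglucosaminyltransferases, galactosyltransferases, sulfotransferases and keratan sulfate core proteins, 1 besides B3gnt7 was in the panel. This was Mgat4b, which adds a branch of N-acetylglucosamine to N-linked glycans. Its totals in the Chen2008-1 clones ran from 1968 to 3214 CPM, with a median of 2191 CPM. In the knockout clones they ran from 2997 to 3822 CPM, with a median of 3155 CPM, and E6 was at 2900 CPM. The knockout and Chen2008-1 ranges overlapped. Mgat4b rose in the knockout clones by 0.49 on the log2 scale (SE 0.10, edgeR adjusted p = 0.000493), as 62.1% of panel genes changed. In E6 it was at 0.30 (SE 0.19, adjusted p = 0.232). The knockout rise was 0.70 (SE 0.11) on the CAST copy and 0.29 (SE 0.11) on the 129 copy. The 129 share of Mgat4b in E6 was 48.8%, below the Chen2008-1 range of 49.4 to 58.4%. It was inside the knockout range of 46.1 to 50.7%. The deletion and the set of clones cannot be told apart here either.

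Some genes on other chromosomes had totals that ran close to those of B3gnt7 over the 14 clones. Likeness was measured as the root mean square distance between clone-centred log2 totals, which had a median of 1.04 over 447 genes. The 5 nearest were Apol6 (0.40), the transglutaminase gene Tgm2 (0.41), the hormone receptor gene Amhr2 (0.44), the proline synthesis gene Pycr1 (0.45) and the heme-binding protein gene Hebp1 (0.45). They were picked for this likeness, so no test is given. In the Chen2008-1 clones, E6 and the knockout clones, the mean totals of Amhr2 were 1233, 442 and 433 CPM. Those of Pycr1 were 1723, 720 and 698 CPM, and those of Hebp1 were 3513, 1562 and 1344 CPM. For these 3 genes E6 was thus close to the knockout clones in total, whereas B3gnt7 in E6 was at 953 CPM between 1939 and 448 CPM. Tgm2 was at 216, 89.6 and 63.1 CPM, and Apol6 at 79.1, 59.8 and 22.1 CPM. In Apol6, E6 lay between the groups as in B3gnt7: the knockout clones reached 38.2 CPM and the Chen2008-1 clones began at 60.3 CPM. Apol6 averaged 13.6 reads in the knockout clones. Tgm2 did not have this order, since its lowest Chen2008-1 clone was at 83.9 CPM. The 129 share in E6 was 52.3% for Amhr2 (Chen2008-1 clones 40.4 to 55.8%) and 59.3% for Tgm2 (58.9 to 72.7%). It was 100% for Apol6 (90.7 to 100%), 56.9% for Pycr1 (49.2 to 55.6%) and 85.2% for Hebp1 (79.5 to 83.2%). The Pycr1 and Hebp1 shares in E6 were above the Chen2008-1 range. They were also above the knockout range, which was 54.3 to 55.7% for Pycr1 and 77.7 to 84.0% for Hebp1.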

How the data were processed

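Libraries were poly(A)+ RNA-seq enriched for a panel of transcripts by hybrid selection with probes, per the labels. The authors deposited unnormalized read counts, whole numbers, with 1 column for each parental copy, per the file headers. The genome build named is mm9, per the submitters' processing notes. Aligner, allele assignment and counting tool are not given in the sources used here. Genotypes came from the deposited genotype table. Of the 28 allelic counts of B3gnt7, 18 were even. If mates were counted separately, reads are not independent molecules.

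Tests used R 4.3.3 and edgeR 4.0.16 (quasi-likelihood, all panel genes averaging 10 or more reads a clone in the fit, Benjamini-Hochberg threshold 0.05). DESeq2 1.42.0 was an alternative. Allelic fits had terms for clone and allele, and TMM factors came from totals. CPM values use the same factors, and log2 CPM for likeness had 1 added. Of 1 gene pair with identical counts, 1 row was left out. The fits of knockout totals, of alleles within the Chen2008-1 or the knockout clones, and of the Chen2008-1 direction were checked on simulated counts. Single-copy fits and the allelic ratio fit of E6 were not, and no change was simulated in E6. Promoter sequence and its windows came from RefSeq, B3gnt7 matching by symbol. Each clone is 1 sample of 1 parental line, so p-values measure the spread between clones.

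Named were B3gnt7, 3 panel genes on each side, measured members of a glycan list, the 5 nearest genes in level, and Zbtb45 and Trim28. The gene, lists and tests were chosen with earlier results of these data known.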

Additional observations from a re-analysis of the deposited data

Results flagged for a closer look

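Of 12 checks for a clone far from its group in the B3gnt7 values, 3 gave a hit, where chance gives about 1 in 20. The groups were all Chen2008-1 clones, their +/- clones and the knockout clones, and the first 2 share clones. Clone H7 had the lowest CAST copy among the Chen2008-1 clones at 641 CPM, apart from the other clones both in the set of 8 and in the +/- set of 6. Its 129 copy, at 734 CPM, was the lowest of the set as well. Clone H4 had the highest 129 copy among the knockout clones at 308 CPM. Its CAST copy was the lowest, at 138 CPM, and its total of 446 CPM was inside the range of the others, from 424 to 491 CPM. H4 had 142 reads of B3gnt7.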

How the results depend on the processing

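The levels of B3gnt7 by genotype moved by less than the SD of the Chen2008-1 clones under every alternative run (another scaling, no filter, halved counts, either Chen2008-1 genotype alone as controls, each clone left out, and, chosen after seeing the data and run for totals only, H7 and H4 left out). Knockout totals ran from -2.16 to -2.04 on the log2 scale, E6 totals from -1.08 to -0.98, and the CAST copy of E6 from -0.51 to -0.37. The allelic ratio of E6 ran from -1.58 to -1.49 in these runs. It was -1.69 in a further run with knockout clones in place of the Chen2008-1 controls. The allele difference in the Chen2008-1 clones changed sign with halved counts (-0.00494), with allele columns scaled separately (-0.0350, chosen after seeing the data) and with B8, D10 or H7 left out (range with a clone left out -0.0192 to 0.0309). Its adjusted p stayed between 0.538 and 0.974. The total by direction of the Chen2008-1 deletion ranged from -0.109 (without D10) to 0.184 with a clone left out, and was also negative without H7. The allelic ratio by direction changed sign with halved counts (-0.0128) and ranged from -0.0992 (without D10) to 0.370 (without D2). None passed, and with p from 0.119 to 0.974 the allele difference in the knockout clones did not either. The cause of these changes was not tested. Genes called in the allelic ratio of E6 numbered 17 with +/- controls alone, 2 with -/+ controls alone and 1 with knockout clones as controls, against 6. Genes called in the allelic ratio by direction numbered 2 to 6 with a clone left out (2 without D2), against 4. No paired analysis was possible because the labels give the clones no replicate numbers shared between groups. Depth limits the precision of the 129 share, which rests on 100 to 463 reads in a knockout clone. The 95% Wilson interval of H4, 61.0 to 76.0%, lay above 50%.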
